A study of Drosophila melanogaster with 6 samples.

Results

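Intronic transcripts are pieces of RNA that a read assembler places inside the introns of known genes. They were compared between wing imaginal discs with and without RNA interference against dNKAP. The members are all transcripts given class code i (lying wholly within a reference intron) or e (a single-exon fragment that overlaps a reference exon and at least 10 bases of an intron, a possible pre-mRNA fragment). There were 1240 of them among 201527 transcripts listed in 6 libraries, 771 of class i and 469 of class e, in 453 host genes. The values are FPKM (sequenced fragments corrected for the length of the transcript and the size of the library) of transcripts assembled separately in each library. A host listed at 0 in a library means that no intronic transcript was assembled there, which does not show that the RNA was absent.

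The wing imaginal disc is the larval epithelium that forms the adult wing and notum. Control discs (3 libraries) carried the genotype MS1096-Gal4, and knockdown discs (3 libraries) carried MS1096-Gal4>dNKAP RNAi, so the driver is shared by both groups. The driver sits in Beadex (Bx) and is active mainly in the wing pouch, and a whole disc therefore also holds cells with little or no hairpin. The labels give no age, sex or number of discs per library. They do not say whether replicates are separate cultures or animals, and the p-values therefore cover the spread among these libraries, which may be technical.

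An intron is cut from the pre-mRNA by the spliceosome as a lariat, which is then debranched and degraded in the nucleus, so intronic RNA is normally short-lived. Intronic reads can come from unspliced pre-mRNA, from retained introns, from lariats, from unannotated exons or from genes nested in the intron. NKAP, the product of CG6066 in the fly, is a nuclear protein that has been linked to splicing and to the repression of transcription. Large introns are frequent in fly developmental regulators and in genes of pericentromeric heterochromatin, where introns hold many transposon remnants.

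Summed read depth was 4.71 to 6.44 gigabases in the control and 4.14 to 4.55 gigabases in the dNKAP RNAi libraries, so every knockdown library was shallower than every control library. CG6066 itself held no intronic transcript, and its exonic level was 22.8 to 26.6 FPKM in control and 11.4 to 13.96 FPKM in dNKAP RNAi libraries (limma adjusted p = 0.0145). All 7 wing disc markers averaged at least 1 FPKM, and their sum was 345 to 361 FPKM in control and 383 to 408 FPKM in dNKAP RNAi libraries, without overlap. The summed level of 6 fat body markers was 1.94 to 73.8 FPKM in control and 173 to 590 FPKM in dNKAP RNAi libraries, with Lsp1beta, Lsp2 and Fbp2 at 0 in all 6. The sum of 6 salivary gland markers was 24.6 to 44.7 and 29.3 to 110 FPKM, and that of 4 gut markers 0.852 to 1.12 and 0.320 to 45.8 FPKM. The part of these markers in the results below was not tested. In bulk libraries fewer cells of a type and less RNA per cell cannot be told apart.

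Intronic transcripts were assembled in more host genes in the knockdown discs, although those libraries were shallower. The number of host genes with at least 1 intronic transcript was 156, 174 and 146 in control replicates 1 to 3 and 182, 193 and 204 in dNKAP RNAi replicates 1 to 3. The groups did not overlap, and the means were 159 ± 14.2 and 193 ± 11.0 (SD, n = 3 each; ratio 1.22). The exact two-sided permutation test gave p = 0.1, the smallest that 3 against 3 libraries allow, and that limit holds for every library total given here.

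The number of intronic transcripts was 180, 214 and 162 in control and 214, 228 and 242 in dNKAP RNAi libraries. The groups met at 214 (ratio of means 1.23, exact permutation p = 0.2). Scaled to depth, there were 37.4, 33.2 and 34.4 transcripts per gigabase in control and 51.6, 52.1 and 53.1 in dNKAP RNAi libraries (ratio 1.49, exact permutation p = 0.1). A value per gigabase is higher in a shallow library wherever a count does not grow with depth. Newly assembled isoforms that share a splice junction with a known one (class j) numbered 1678 to 1829 in control and 1705 to 1856 in dNKAP RNAi libraries, and per gigabase they too separated, at a ratio of 1.23. Counted against 100 class j isoforms of the same library, there were 10.4, 11.7 and 9.65 intronic transcripts in control and 12.1, 13.4 and 13.0 in dNKAP RNAi libraries, without overlap (exact permutation p = 0.1).

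**Figure D1:**
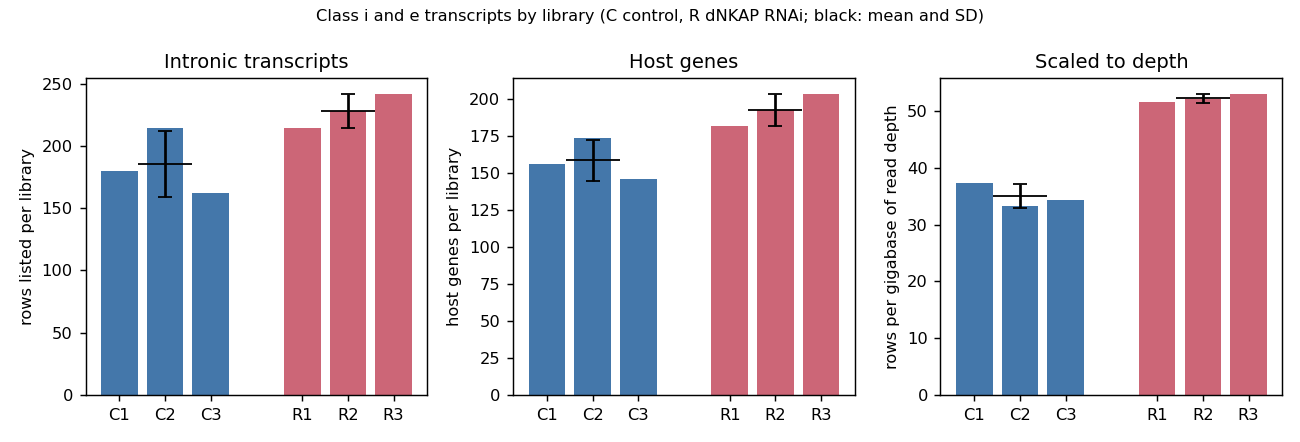
Bars give the number of intronic transcripts (left), the number of host genes (middle) and intronic transcripts per gigabase of summed read depth (right) in each control (C1 to C3) and dNKAP RNAi (R1 to R3) library, with group mean and SD in black. Transcript counts meet at 214, whereas host genes (146 to 174 against 182 to 204) and transcripts per gigabase (33.2 to 37.4 against 51.6 to 53.1) do not overlap.

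Class i transcripts numbered 106, 133 and 103 in control and 137, 141 and 151 in dNKAP RNAi libraries, without overlap (exact permutation p = 0.1). Class e transcripts numbered 74, 81 and 59 against 77, 87 and 91, with overlap (exact permutation p = 0.2). Host genes of class e transcripts overlapped too, at 59 to 80 in control and 77 to 90 in dNKAP RNAi libraries (exact permutation p = 0.2). Assembled transcripts in intergenic regions (class u) numbered 96, 118 and 86 in control and 102, 108 and 137 in dNKAP RNAi libraries, with overlap (ratio 1.16, exact permutation p = 0.4). The bases of class u transcripts had a ratio of 0.966 (exact permutation p = 0.9). Their summed FPKM was 332 to 399 in control and 501 to 636 in dNKAP RNAi libraries, without overlap (ratio 1.49, exact permutation p = 0.1). Scaled to depth, class u transcripts went from 18.9 ± 0.956 to 26.5 ± 3.14 per gigabase (SD, n = 3 each; ratio 1.40, exact permutation p = 0.1). Against 100 class u transcripts of the same library, intronic transcripts numbered 187.5, 181 and 188 in control and 210, 211 and 177 in dNKAP RNAi libraries, and the groups overlapped.

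The summed FPKM of intronic transcripts was 1072, 1181 and 1069.8 in control and 2755, 20436 and 2037 in dNKAP RNAi libraries. The ratio of means was 7.59 (exact permutation p = 0.1) and fell to 2.16 without dNKAP RNAi replicate 2, whose sum came mostly from 1 transcript. Without transcripts above 100 FPKM the sums were 1072, 1063 and 806 in control and 1545, 1288 and 1411 in dNKAP RNAi libraries. The groups still did not overlap, and the ratio was 1.44 (exact permutation p = 0.1). For class i alone below that limit the sums overlapped, at 578 to 791 against 765 to 1023 FPKM (exact permutation p = 0.2).

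**Figure D2:**
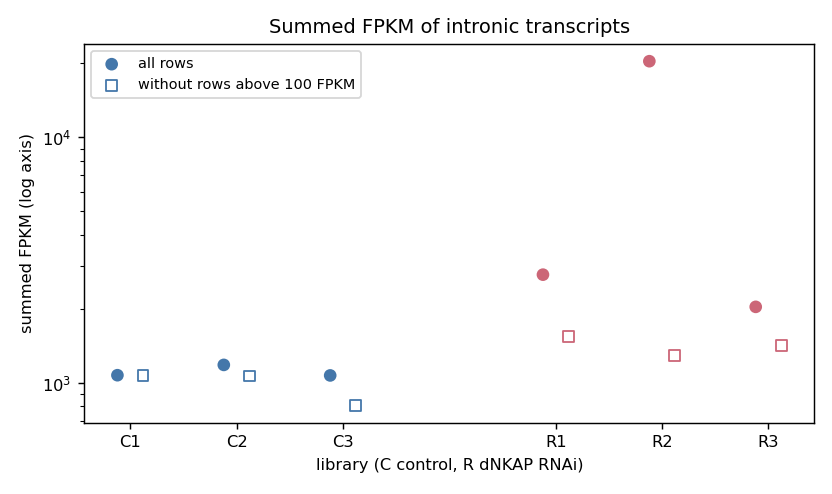
Summed FPKM of intronic transcripts per library on a log axis, with all transcripts (filled circles) and without those above 100 FPKM (open squares), for control (blue, C1 to C3) and dNKAP RNAi (red, R1 to R3). The value of 20436 in R2 drops to 1288 without transcripts above 100 FPKM, and the open squares run from 806 to 1072 in control and from 1288 to 1545 in dNKAP RNAi.

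Measured as sequenced bases (read depth times transcript length), intronic transcripts held 4.17, 4.34 and 2.99 megabases in control and 6.71, 8.54 and 5.91 megabases in dNKAP RNAi libraries (ratio 1.84, exact permutation p = 0.1). Without transcripts above 100 FPKM these were 4.174, 4.05 and 2.72 against 4.39, 4.178 and 4.52 megabases. The highest control and the lowest knockdown library then almost met, and the ratio was 1.20. As a share of all bases of the library the values without those transcripts were 0.0868%, 0.0629% and 0.0579% in control and 0.106%, 0.0955% and 0.0992% in dNKAP RNAi libraries, again without overlap (exact permutation p = 0.1).

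The 10 transcripts above 100 FPKM lay in 6 host genes, with 0, 1 and 2 in the control and 2, 3 and 2 in the dNKAP RNAi libraries. The highest was an 82-base class i transcript of lovit at 18631 FPKM (deposited confidence bounds 10267 to 26995) in dNKAP RNAi replicate 2. lovit encodes a vesicular transporter of photoreceptors and lies in 3L near the centromere (25236940 to 25670980, minus strand, dm6 coordinates). Its longest annotated intron has 189627 bases, its exonic level was listed at 0 in all 6 libraries, and no other library held an intronic transcript of it. FPKM of very short transcripts is high for the reads behind it. Read depth per FPKM was 3.92 for transcripts under 200 bases and 5.32 for longer ones in that library, and it was lower for short transcripts in all 6.

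GEFmeso, a guanine nucleotide exchange factor gene with an intron of 49512 bases, was the only host whose class i transcripts passed 100 FPKM in more than 1 knockdown library. Its intronic level was 47.9, 75.0 and 0 FPKM in control and 87.0, 367 and 480 FPKM in dNKAP RNAi libraries. The groups did not overlap, but the spread was wide (log2 change 4.35, SE 2.11, limma adjusted p = 0.335). Its exonic level was 12.1 to 15.0 FPKM in control and 14.1 to 24.1 FPKM in dNKAP RNAi libraries. Without transcripts above 100 FPKM the intronic change turned negative, at -1.24.

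RpS28b, a ribosomal protein gene, had a class e transcript of 399 bases at 1105.5 FPKM in dNKAP RNAi replicate 1 alone, while its exonic level was listed at 0 in all 6 libraries. CG32640, a gene with 1 intron of 53 bases, had class e transcripts of 61.2, 61.0 and 122.5 FPKM in control and 0, 152 and 145 FPKM in dNKAP RNAi libraries. In dNKAP RNAi replicate 1, where none was listed, its exonic level was 119.5 FPKM against 56.0 to 76.0 FPKM elsewhere. The remaining hosts above 100 FPKM were pelo, an mRNA surveillance gene (117.6 FPKM in control replicate 2), and wcy (141 FPKM in control replicate 3 and 104 FPKM in dNKAP RNAi replicate 1). Just below the limit stood GEFmeso at 87.0 FPKM and cwo, a circadian repressor gene, at 83.4 FPKM, both in dNKAP RNAi replicate 1. Summed over its transcripts, cwo was at 55.0, 43.1 and 28.8 FPKM in control and 91.9, 0 and 0 FPKM in dNKAP RNAi libraries. The groups overlapped (log2 change -3.86, SE 2.19, limma adjusted p = 0.404), and the change rests on values of 0.

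The hosts of the classes differed in gene structure. Of 228 hosts of class i transcripts, 50.4% had an annotated intron over 10000 bases and the median longest intron was 10319 bases. Among 5735 genes with an intron and an exonic mean of at least 1 FPKM, 11.4% had such an intron and the median was 491 bases. The 240 annotated hosts of class e transcripts had a median longest intron of 206.5 bases. Class i by definition needs an intron longer than the transcript, so long introns had more room for it, and these figures are a description. At least 1 other gene nested in an intron was annotated in 38.6% of class i hosts and in 12.7% of the expressed genes. Within 5 megabases of the centromere-proximal end of an arm lay 18.0% of class i hosts, 35.7% of the 28 hosts found in all 6 libraries and 6.82% of the expressed genes.

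Class i transcripts had a median length of 472 bases (82 to 3830) and a median of 3.42 FPKM, and class e transcripts a median length of 1040 bases (246 to 7364) and a median of 1.94 FPKM. The median half-width of the deposited confidence bounds was 47.2% of the value over both classes, so most single transcripts were measured coarsely. All 748 class i transcripts whose reference transcript could be matched were no longer than its longest intron. The files give no coordinates for assembled transcripts, and the intron itself could be identified for the 139 class i transcripts where 1 intron of the reference transcript was long enough.

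Most hosts were seen in few libraries. Of the 453, 202 had intronic transcripts in 1 library and 28 in all 6. There were 119 hosts in control libraries alone, 155 in dNKAP RNAi libraries alone and 179 in both groups. All 3 knockdown libraries and no control library held intronic transcripts of 15 hosts, and the reverse held for 2. Among features tested, this pattern held in 12 hosts (5.61%), against 0.64% of all features. Its reverse held in 2 (0.935%), against 0.134%. Above 0 in every library were 82.4% of all features and 13.1% of intronic features. Most features of the whole set could therefore show neither pattern. The comparison by host used the 214 hosts with a mean of at least 1 FPKM. Of these, 62 were listed at 0 in every control library and 19 in every dNKAP RNAi library, and had passed through the other group alone. Their counts, signs and limma p-values therefore carry no support of their own.

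By limma with Benjamini-Hochberg adjustment over all 6720 features, 11 of the 214 hosts were higher and 2 lower in dNKAP RNAi. Over all features 3.27% were called higher and 0.551% lower, against 5.14% and 0.935% of the intronic features. Of the 11 higher hosts, 10 were listed at 0 in all controls, and both lower hosts were listed at 0 in all knockdown libraries. The limma p-values given below for these hosts rest on a group without spread and are a description. Pex3 was the 1 called host with intronic transcripts in every library. The exonic level of the host was testable for 10 of the 13 and passed the threshold in 0 of them by limma. Over all exonic features 3.21% were higher and 0.538% lower.

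**Figure D3:**
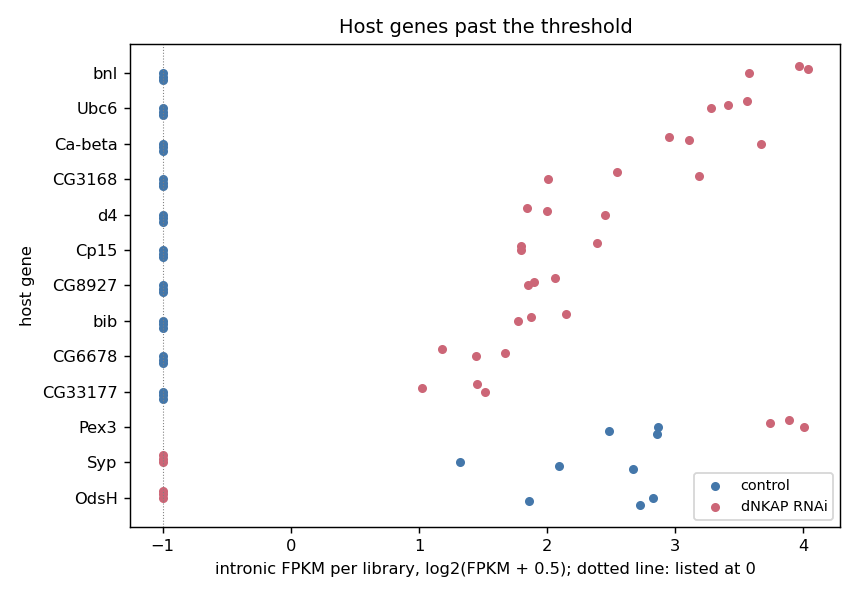
Intronic level of the 13 host genes past the threshold in each control (blue) and dNKAP RNAi (red) library, as log2(FPKM + 0.5), with points at the dotted line listed at 0. In 10 hosts all controls are listed at 0, in Syp and OdsH all dNKAP RNAi libraries are, and Pex3 has values in every library (5.09 to 6.78 against 12.9 to 15.5 FPKM).

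Pex3 encodes a peroxin that inserts peroxisomal membrane proteins (3L, 15144355 to 15146379, plus strand). Its class e transcript was 6.75, 5.09 and 6.78 FPKM in control and 15.5, 12.9 and 14.3 FPKM in dNKAP RNAi libraries. The highest control lay below the lowest knockdown library, with means of 6.21 ± 0.965 in control and 14.2 ± 1.32 FPKM after knockdown (SD, n = 3 each). The log2 change was 1.14 with an SE of 0.15 (limma adjusted p = 0.0177). The adjusted p lay between 0.0342 and 0.0822 when each library was left out in turn, and stayed under 0.05 only without control replicate 2. The exonic level was 45.9, 45.4 and 45.8 FPKM in control and 43.4, 43.3 and 42.3 FPKM in dNKAP RNAi libraries (limma adjusted p = 0.362). The class e transcript thus made up 11.9% ± 1.60 and 24.8% ± 1.74 of the gene's FPKM. It was 1588 to 1630 bases long, against 1906 bases of the spliced and 2025 bases of the unspliced reference. The gene has 2 annotated introns, the longest of 133 bases. Most of this class e transcript was therefore exon sequence, and its level cannot be read apart from the exonic level.

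bnl encodes Branchless, the FGF ligand that guides tracheal branches and is made in the disc epithelium (3R, 19794073 to 19836817, minus strand). No control library listed a class i transcript of bnl, and dNKAP RNAi replicates 1 to 3 listed 11.4, 15.9 and 15.2 FPKM (limma adjusted p = 5.91e-04). They were 241, 259 and 257 bases long, at a read depth of 51.2, 73.2 and 77.3 per base. The bnl exonic level was 1.74, 2.17 and 2.46 FPKM in control and 1.81, 1.80 and 2.21 FPKM in dNKAP RNAi libraries, so the groups overlapped there. Control replicate 2 was the deepest library and held no intronic bnl transcript, and the part of depth in this was not tested. A gene for tRNA:Thr-AGT-1-7, of 74 bases, is annotated in an intron of bnl, and 5 of its introns were long enough for the assembled transcripts.

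Ubc6, the fly RAD6 ubiquitin-conjugating enzyme gene (3R, 4948755 to 4952682, minus strand), was listed at 0 in every control library and at 9.22, 10.1 and 11.3 FPKM after knockdown (limma adjusted p = 7.00e-04). Its transcripts of 540 to 655 bases could lie in 1 intron alone, of 1700 bases (3R, 4950753 to 4952452). The exonic level was unstable, at 1.90, 0 and 11.8 FPKM in control and 33.0, 0 and 21.4 FPKM in dNKAP RNAi libraries. CG8927 was likewise listed at 0 in controls and at 3.10, 3.22 and 3.69 FPKM in knockdown libraries (limma adjusted p = 0.0106), in an intron of 3762 bases (3R, 16181196 to 16184957).

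Ca-beta, the gene of a voltage-gated calcium channel beta subunit, had 9 intronic transcripts, all in knockdown libraries. They summed to 12.2, 8.11 and 7.25 FPKM (limma adjusted p = 0.00198), while the exonic level of Ca-beta was 0.138 to 0.447 FPKM over the 6 libraries. For CG3168 the values in dNKAP RNAi libraries were 3.52, 8.59 and 5.32 FPKM (limma adjusted p = 0.0107).

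d4, an orthologue of human DPF chromatin factors, was at 4.96, 3.50 and 3.09 FPKM (limma adjusted p = 0.0106), and bib, the neurogenic gene big brain, at 2.92, 3.17 and 3.92 FPKM (limma adjusted p = 0.0111), all in knockdown libraries. Both were expressed in the disc, with exonic levels of 13.9 to 23.6 FPKM for d4 and 18.3 to 35.3 FPKM for bib, and neither exonic level passed the test (limma adjusted p = 0.516 and 0.343). The other called hosts were low in exons: Cp15, a chorion protein gene, and CG33177 with class e transcripts, and CG6678 with class i transcripts. Their intronic levels in knockdown libraries were 2.96 to 4.75, 1.54 to 2.36 and 1.76 to 2.69 FPKM. The transcripts of Cp15 (521 to 552 bases) and CG33177 (1040 to 1076 bases) were longer than the spliced references, of 515 and 862 bases. The exonic level of both genes was listed at 0 in dNKAP RNAi replicates 1 and 2.

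OdsH, the homeobox gene Odysseus (X, 17791010 to 17814011, plus strand), was at 6.11, 3.13 and 6.61 FPKM in control libraries and listed at 0 in all knockdown libraries (limma adjusted p = 0.0106). Its exonic level was 0 to 0.0926 FPKM, near 0 in both groups. Syp encodes Syncrip, an RNA-binding protein (3R, 20756729 to 20810726, plus strand), and was at 5.87, 3.77 and 2.00 FPKM in control and listed at 0 in all knockdown libraries (limma adjusted p = 0.0301). Exonic Syp was 159 to 221 FPKM in control and 163 to 177 FPKM in dNKAP RNAi libraries, and those groups overlapped. Without control replicate 2 or any 1 knockdown library the adjusted p of Syp rose to between 0.0724 and 0.0808.

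The 28 hosts with intronic transcripts in every library allow a comparison that values of 0 do not decide. Of these, 19 had a positive and 9 a negative log2 change, with a median of 0.19, against 54.8% positive and a median of 0.03 over all features. The groups did not overlap in 4 higher and 2 lower hosts, against 17.1% and 10.9% of all features.

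Gprk1, a G protein-coupled receptor kinase gene, was at 3.87, 1.06 and 1.00 FPKM in control and 9.04, 10.8 and 11.7 FPKM in dNKAP RNAi libraries. The groups did not overlap, but the adjusted p missed the threshold (log2 change 2.33, SE 0.46, limma adjusted p = 0.0673). Without control replicate 1 it passed, at a limma adjusted p of 0.00662, and it did not without any other library (0.164 to 0.193). It also passed with coverage times length in place of FPKM (adjusted p = 0.0192) and among features above 0 in every library (0.0375). Its exonic level was listed at 0 in all 6 libraries, and the intronic sum came from 18 transcripts. CHKov1, a kinase-like gene, was at 16.8, 20.9 and 23.2 FPKM in control and 33.9, 39.0 and 56.6 FPKM in dNKAP RNAi libraries (log2 change 1.05, SE 0.23, limma adjusted p = 0.0833). Class e transcripts, which overlap exons, made up most of this, at 11.4, 15.9 and 23.2 against 33.9, 32.0 and 49.9 FPKM. With class i alone the log2 change was 0.25 (limma adjusted p = 0.953). The exonic level of CHKov1 overlapped between groups, at 26.2 to 33.6 against 32.9 to 42.8 FPKM.

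Lower without passing the test were babo, the activin type I receptor gene, and AGO3, a piRNA-pathway Argonaute gene. babo was at 22.1, 18.6 and 8.02 FPKM in control and 6.08, 5.07 and 4.72 FPKM in dNKAP RNAi libraries (limma adjusted p = 0.144, and 0.0186 without control replicate 3). AGO3 was at 11.5, 10.1 and 10.9 against 7.27, 9.86 and 6.04 FPKM (limma adjusted p = 0.257). In both genes the highest knockdown library lay below the lowest control. AGO3 had 26 intronic transcripts, and its exonic level was at most 0.204 FPKM. tara, a transcriptional cofactor gene, was at 2.90, 5.96 and 5.11 against 0.963, 1.36 and 0 FPKM (limma adjusted p = 0.142).

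In other abundant hosts the groups overlapped. wcy, the most abundant of the 28, was at 48.3, 40.6 and 141 FPKM in control and 104, 44.4 and 52.1 FPKM in dNKAP RNAi libraries. CG34347 was at 36.9, 71.9 and 21.7 against 11.2, 8.34 and 23.2 FPKM (log2 change -1.54, SE 0.57, limma adjusted p = 0.241). Pcf11, a cleavage and polyadenylation factor gene and the 1 host among the decay and processing genes listed, was at 23.9, 21.9 and 26.1 against 23.7, 19.0 and 23.4 FPKM. HmgD, a chromatin HMG-box gene, was at 8.06, 12.1 and 12.1 against 11.7, 12.5 and 8.83 FPKM. The intronic part of Pcf11 was 49.1% ± 3.10 of its FPKM in control and 45.7% ± 3.05 in dNKAP RNAi, and that of HmgD 0.493% ± 0.112 and 0.739% ± 0.0649 (SD, n = 3 each). Unlike its intronic level, the HmgD share did not overlap, at 0.378% to 0.601% against 0.694% to 0.814%. The exonic level of HmgD had a log2 change of -0.56 (limma adjusted p = 0.342).

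The potassium channel genes SK and KCNQ ranged from 6.69 to 22.0 and from 5.76 to 33.8 FPKM over the 6 libraries, with overlapping groups. asRNA:CR45214 ranged from 20.0 to 29.1 FPKM. MFS17 (22 transcripts), spg, a DOCK-family exchange factor gene (12), and sug, a Gli-like zinc finger gene (11), were among the hosts with the most transcripts. MFS17 and spg overlapped between groups. sug was at 2.24, 2.27 and 1.94 FPKM in control and 2.79, 2.86 and 3.34 FPKM in dNKAP RNAi libraries, without overlap, and missed the threshold (log2 change 0.40, SE 0.18, limma adjusted p = 0.305).

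**Figure D4:**
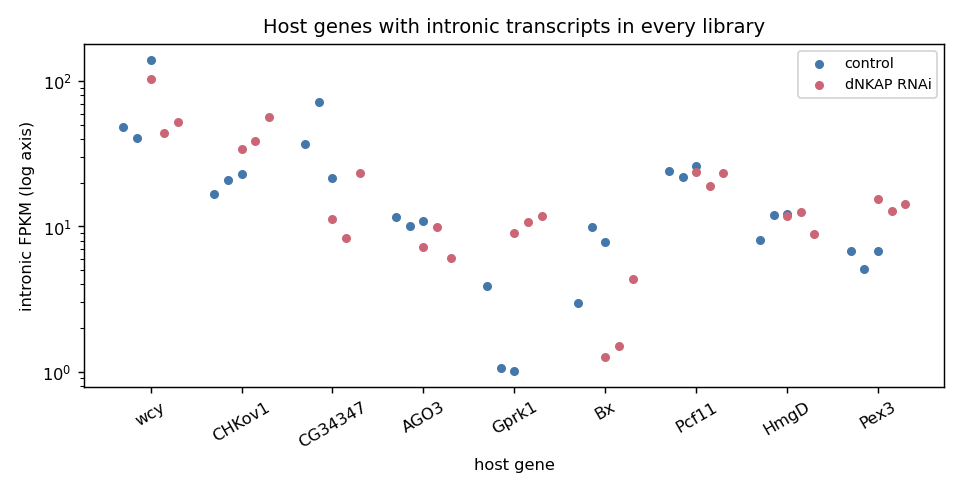
Intronic FPKM on a log axis of 9 hosts with intronic transcripts in every library, 1 point per control (blue) and dNKAP RNAi (red) library. The groups separate upward in CHKov1, Gprk1 and Pex3 and downward in AGO3, and they overlap in wcy, CG34347, Bx, Pcf11 and HmgD. Values of Pex3 are class e alone, and those of CHKov1 are mostly class e.

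Bx, where the MS1096-Gal4 driver is inserted, held 17 class i transcripts over all 6 libraries. Its intronic level was 2.98, 9.91 and 7.83 FPKM in control and 1.26, 1.49 and 4.31 FPKM in dNKAP RNAi libraries, with overlap (limma adjusted p = 0.296). The exonic level of Bx was 0, 0 and 10.5 against 18.9, 18.8 and 0 FPKM, so it was listed at 0 in 3 libraries. Its annotated introns, the longest of 45656 bases, hold 4 other genes, tRNA:Pro-CGG-2-1 among them.

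Of 5735 expressed genes with an intron, 306 (5.34%) were hosts, and 3.27% of all features were called higher and 0.551% lower. Among the gene lists, 5 of 27 wing patterning factors were hosts (nub, Bx, rn, bi and zfh2), and none of the 3 tested was called. The POU gene nub, a pouch marker, had 1 intronic transcript, at 6.50 FPKM in dNKAP RNAi replicate 2, and rn, a zinc finger gene of the pouch, had values in control replicate 3 (9.08 FPKM) and dNKAP RNAi replicates 1 and 2 (10.3 and 1.22 FPKM). Of 33 signalling genes, 5 were hosts (Ser, Egfr, fz2, tkv and dpp), with 0 of 4 tested called by limma. Ser, a Notch ligand gene, was at 0, 26.8 and 19.7 FPKM in control and 0, 34.2 and 57.6 FPKM in dNKAP RNAi libraries, and its exonic level was 51.3 to 63.3 against 58.8 to 110 FPKM, both overlapping. tkv, a BMP receptor gene, was listed in 1 control (4.13 FPKM) and 2 knockdown libraries (5.14 and 1.23 FPKM), and Egfr in 2 of each. Antp was the host among 8 homeotic genes, in control replicate 1 alone at 1.94 FPKM. The splicing regulator gene mbl, with an intron of 75030 bases, was at 2.32, 0 and 4.02 against 5.57, 2.66 and 2.99 FPKM, and bun, a growth regulator of the TSC22 family, at 5.76 FPKM in dNKAP RNAi replicate 2 alone. These were the hosts among 21 adhesion and large regulatory genes. Of 178 genes with a small RNA gene in an intron, 12 were hosts, 6 were tested and 1, bnl, was called. Mnr, another of them, was at 4.72, 5.99 and 0 FPKM in control and 8.12, 0 and 0 FPKM in dNKAP RNAi libraries.

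Genes of intron removal and nuclear RNA decay were examined at their exonic level. Of 28 tested spliceosome genes, 2 were higher and 1 lower, where 3.21% and 0.538% of all exonic features were. Their median log2 change was -0.10 against 0.03 over all features. Prp3 (53.3 FPKM) was above 0 in control replicate 3 alone and Sf3b1 (26.3 FPKM) in control replicate 2 alone. SC35 was listed at 0 in control replicate 2 and dNKAP RNAi replicate 1. The changes of these genes rest on values of 0. Prp31, a U4/U6 snRNP gene, rose from 48.2 ± 2.59 to 86.1 ± 4.88 FPKM (SD, n = 3 each; limma adjusted p = 0.00434) and cactin from 26.8 ± 1.44 to 37.7 ± 1.69 FPKM (limma adjusted p = 0.0246). Acn, a component of the exon junction accessory complex, fell from 27.7 ± 0.956 to 21.5 ± 0.192 FPKM (limma adjusted p = 0.0354). The other list, of lariat debranching, the nuclear exosome and related factors, had 13 tested genes, Pcf11, Nrd1 and Rat1 among them. Of these, 0 were higher and 0 lower by limma, with a median log2 change of 0.07. Rrp4 and Mtr3 were listed at 0 in all dNKAP RNAi libraries and in at least 1 control, so their changes rest on values of 0. No spliceosome gene was itself a host.

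The intronic level was set against the exonic level of the same gene in 174 hosts where both averaged at least 1 FPKM. In the log ratio 0 hosts were higher and 0 lower by limma, and 7 (4.02%) had an unadjusted p under 0.05, against 18.7% of all features in the test of levels. The smallest adjusted p was 0.0550, shared by bnl and CG3770. CG3770, named after its values were seen, had class e transcripts of 10.8 and 13.3 FPKM in dNKAP RNAi replicates 1 and 2 alone, and its exonic level was 26.7, 17.6 and 24.7 FPKM in control and 11.9, 7.72 and 0 FPKM in dNKAP RNAi libraries. Its intronic level gave a limma adjusted p of 0.305. With no control value above 0, it passed the filter through the knockdown group alone. Class e values of a gene cannot be read apart from its exonic value. In 155 of 469 class e transcripts the exonic level of the host was listed at 0 in the same library, and in 33 of these it averaged over 1 FPKM in the other libraries.

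asRNA:CR44600 is an example. Its class e transcript was 34.8, 35.7 and 33.7 FPKM in control replicate 1 and dNKAP RNAi replicates 2 and 3, where its exonic level was listed at 0. In the other 3 libraries no class e transcript was listed and the exonic level was 16.4, 15.4 and 12.9 FPKM. For p38b, a stress-activated kinase gene with 1 intron of 102 bases, dNKAP RNAi replicate 1 listed a class e transcript of 35.2 FPKM and an exonic level of 0, and the other libraries listed 31.0 to 35.0 FPKM in exons and no class e transcript. In p38b the values under either code thus lay between 31.0 and 35.2 FPKM. Class e transcripts longer than the spliced reference numbered 111, and 106 reached at least 0.9 of the unspliced length.

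**Figure D5:**
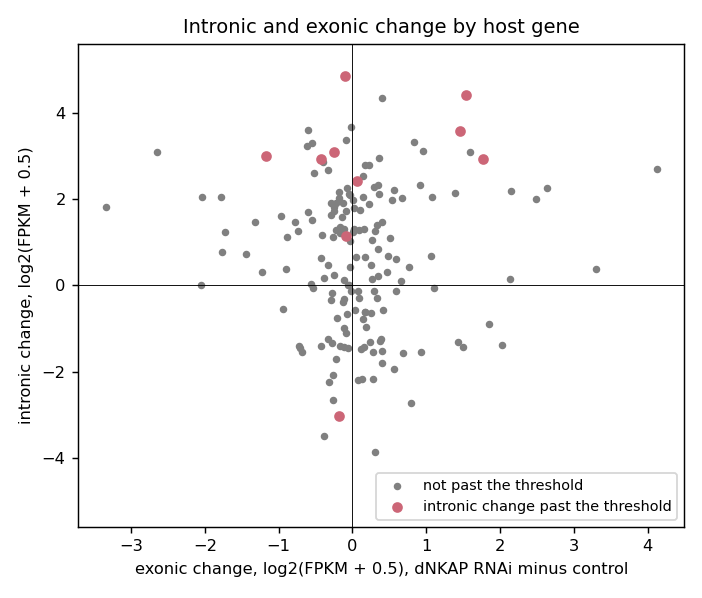
Change of the intronic level against change of the exonic level of the same host, both as log2(FPKM + 0.5), dNKAP RNAi minus control, for hosts where both were tested. Red points are the 10 hosts with an intronic change past the threshold; hosts listed at 0 in 1 whole group passed the filter through the other and lie far from 0 on the vertical axis by that choice.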

How the data were processed

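Wing disc RNA was prepared with Trizol and read on an Illumina NextSeq instrument, according to the labels' protocols. The authors deposited 1 table of assembled transcripts per library in the layout that Cuffcompare writes, per the file headers, with class code, FPKM and its confidence bounds, read depth and length. FPKM was taken from the deposited tables without change. Coverage in the deposited tables is a signal giving the average depth of reads over a transcript, not scaled to library size. The submitters' processing notes name FastQC, HTSeq, DESeq and the build dm6. No source used here states assembler settings, annotation release or use of strand, so nested and antisense genes cannot be told apart from their host.

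Transcripts of class i and e were summed by host gene, and classes for exact, contained, junction-sharing and other exonic matches gave the exonic level. Of 453 host identifiers, 445 were matched by ID and 7 through a transcript in the Ensembl annotation of dm6, which gave introns and coordinates. Library totals were compared with exact two-sided permutation tests. Hosts were tested with limma 3.58.1 (R 4.3.3) on log2(FPKM + 0.5) with a trend, for 6506 exonic and 214 intronic features averaging 1 FPKM or more in 1 fit, with Benjamini-Hochberg adjustment and a threshold of 0.05. Fold changes on this scale are understated for low genes. Python 3.11.15, pandas 2.3.3, numpy 2.4.6 and scipy 1.17.1 were used, and scripts were tested on simulated data.

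Hosts are named by rule: the 10 most abundant in all 6 libraries, up to 10 called in each direction (or 5 by unadjusted p), those above 100 FPKM, the 8 with the most transcripts, up to 6 seen in all libraries of 1 group alone, and up to 3 of each list. asRNA:CR44600, p38b, cwo and CG3770 were chosen after their values were seen. The hosts and gene lists were chosen with earlier results of these data known. Alternatives covered pseudocount, filter, scaling, class, length, transcripts above 100 FPKM, replicate block and leaving out each library.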

Additional observations from a re-analysis of the deposited data

How the results depend on the processing

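The ratios of library totals stayed above 1 under every alternative run. Among these totals, summed FPKM had an exact permutation p of 0.1 in the main comparison. Without any 1 control library it was 0.5, raw or scaled to the library. Alternatives for these totals were added after the data had been seen: depth scaling without transcripts above 100 FPKM, where the ratios were 1.49 for transcripts, 1.46 for host genes, 1.45 for FPKM and 1.45 for bases, and depth scaling without each library. The count of hosts called higher (11) became 3 with class e alone, 2 with only features above 0 in every library and 3 with a replicate block, and 12 to 18 without each library, the highest without dNKAP RNAi replicate 3. The count called lower (2) became 0 with class e alone, 0 with only features above 0 in every library, 1 with coverage times length and 0 with the replicate block, and 2 to 5 without each library, 5 when control replicate 3 was left out and 4 for dNKAP RNAi replicate 3. The intronic to exonic ratio, with 0 hosts higher, gave 7 with no filter, 1 with class i alone, 2 without transcripts under 200 bases, 1 with coverage times length, 1 with only features above 0 in every library, and 0 to 5 without each library, 5 without dNKAP RNAi replicate 2. With no filter 1 host was lower in this ratio. The causes of these shifts were not tested. Some of these alternatives also had fewer features or samples in the fit.

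Same-numbered libraries did not deviate together (correlations of 0.0159, 0.0637 and 0.0647 over 5539 features), so numbers were not taken as pairs. Pex3, the called host with values in every library, had an adjusted p of 0.0627 with the replicate block. The limma log2 change turned sign for 9 named hosts. For GEFmeso it was -1.24 without transcripts above 100 FPKM. For wcy it was 0.078 without them and 0.075 with coverage times length, and for HmgD -0.12 with quantile normalization. Leaving out each library gave -3.19 to 0.94 for CG32640, -0.50 to 1.36 for Egfr, -0.14 to 0.19 for HmgD, -1.23 to 2.79 for Ser, -0.53 to 2.07 for rn, -0.0029 to 0.48 for spg, -0.18 to 1.76 for tkv and -0.44 to 0.49 for wcy. lovit, RpS28b, nub and p38b gave no value without the 1 library that held their transcript. Over 45 named hosts, 720 of 768 alternatives kept the direction and the side of the threshold. Many alternatives leave the values of a host unchanged, and most named hosts were not called, so this count says little about the calls. Of the 13 called hosts, 3 remained with the replicate block and 1 with only features above 0 in every library. With coverage times length 8 remained, and CG6678, CG8927, Syp, bib and d4 were not called. The wide confidence bounds and the assembly of each library on its own limit what a value of 0 can show.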
